A study of Homo sapiens with 6 samples.

Results

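The 53 genes described here encode the machinery of mitosis: cyclins and kinases that start it, the chromosomal passenger complex, the spindle checkpoint, centromere and kinetochore proteins, kinesin motors, spindle factors, cytokinesis factors and a pair of markers of dividing cells. They were taken by symbol from a list of known mitotic genes, and all 53 were found among the 20042 genes of the count table. RNA sequencing had been carried out on MDA-MB-231, a long-established line of human breast cancer cells that lacks the oestrogen and progesterone receptors and has a mesenchymal character. In 3 cultures the cells were transfected with siRNA-1, a small interfering RNA directed against ERBBride, and in the other 3 with a control siRNA (siCTRL). A small interfering RNA is a short duplex that guides the breakdown of matching transcripts. All 6 cultures were of the same wild-type line and all received an siRNA, so the comparison holds transfection in common and asks which transcripts differed with the siRNA-1 duplex. Only 1 duplex against ERBBride was tested, and its target was not analysed here because no row of the table carries that name, so whether the knockdown took place was not checked. The dose and the time of transfection are not stated in the labels.

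In mitosis, cyclin B and CDK1 drive the cell into division, Aurora and Polo-like kinases build the spindle, and kinesin motors slide and align its microtubules and the chromosomes. Kinetochores attach chromosomes to spindle microtubules, and the spindle checkpoint holds back the anaphase-promoting complex, a ubiquitin ligase, until all are attached. Most of these genes are transcribed in G2 and mitosis under a shared control by the MuvB complex, B-MYB, FOXM1 and NF-Y, and their RNA is a common measure of proliferation in breast cancer.

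Library totals ranged from 14153969 to 15014434 counts in siRNA-1 and from 12813706 to 14847527 counts in siCTRL. A count of 3 corresponded to at most 0.233 counts-per-million (CPM), a limit that covers counting error only. The labels call the cultures biological replicates without saying how they were separated. The p-values thus set a difference between groups against the spread between these samples only, in an estimate partly shared across genes. VIM and CD44, mesenchymal markers of this line, had at least 23519 and 12016 counts in every library, while ESR1 and PGR, the receptors the line lacks, had at most 3 and 0. Of the blood cell markers CD3E and HBB were at 0 and PTPRC and LYZ reached at most 23 counts, and of the endothelial markers CDH5 was at 0 and KDR reached 144. The library siCTRL 2 stood apart from the other controls at the mitotic genes. The 53 genes together held 0.878%, 0.878% and 0.939% of the counts in siRNA-1 libraries 1 to 3, against 0.610%, 0.806% and 0.638% in siCTRL 1 to 3. siCTRL 2 was the highest of the 3 controls at 48 of the 53 genes (90.6%), against 5126 of the 12440 genes tested (41.2%). Results are given with all libraries, and every call of a mitotic gene that differs without siCTRL 2 is given too.

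Most mitotic genes were higher in siRNA-1 cells by moderate amounts, and a small group was lower. In edgeR's quasi-likelihood test with Benjamini-Hochberg adjustment over all 12440 genes and a threshold of 0.05, 33 of the 53 rose, 5 fell and 15 did not pass. Of all genes tested, 31.5% rose and 31.0% fell. The median log2 fold change (siRNA-1 over siCTRL) of the 53 genes was 0.40, and that of all genes was 0.0059. Without siCTRL 2, 45 of the 53 rose, the same 5 fell and 3 did not pass, with a median of 0.53, while 34.5% of all 12562 genes tested rose and 34.3% fell. Every siRNA-1 library lay above every siCTRL library at 30 of the 53 genes and below at 5, and the groups overlapped at the other 18. Over all genes tested these arrangements held for 34.6% above and 33.0% below. In RNA of whole cultures, a change in the number of cells in G2 and mitosis and a change in RNA per such cell cannot be told apart. Where an adjusted p without siCTRL 2 is given, it rests on 2 controls and on a more strongly shared estimate of the spread (74.3 prior degrees of freedom, against 7.69 with all libraries), and its size is not comparable with that from all libraries.

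**Figure D1:**
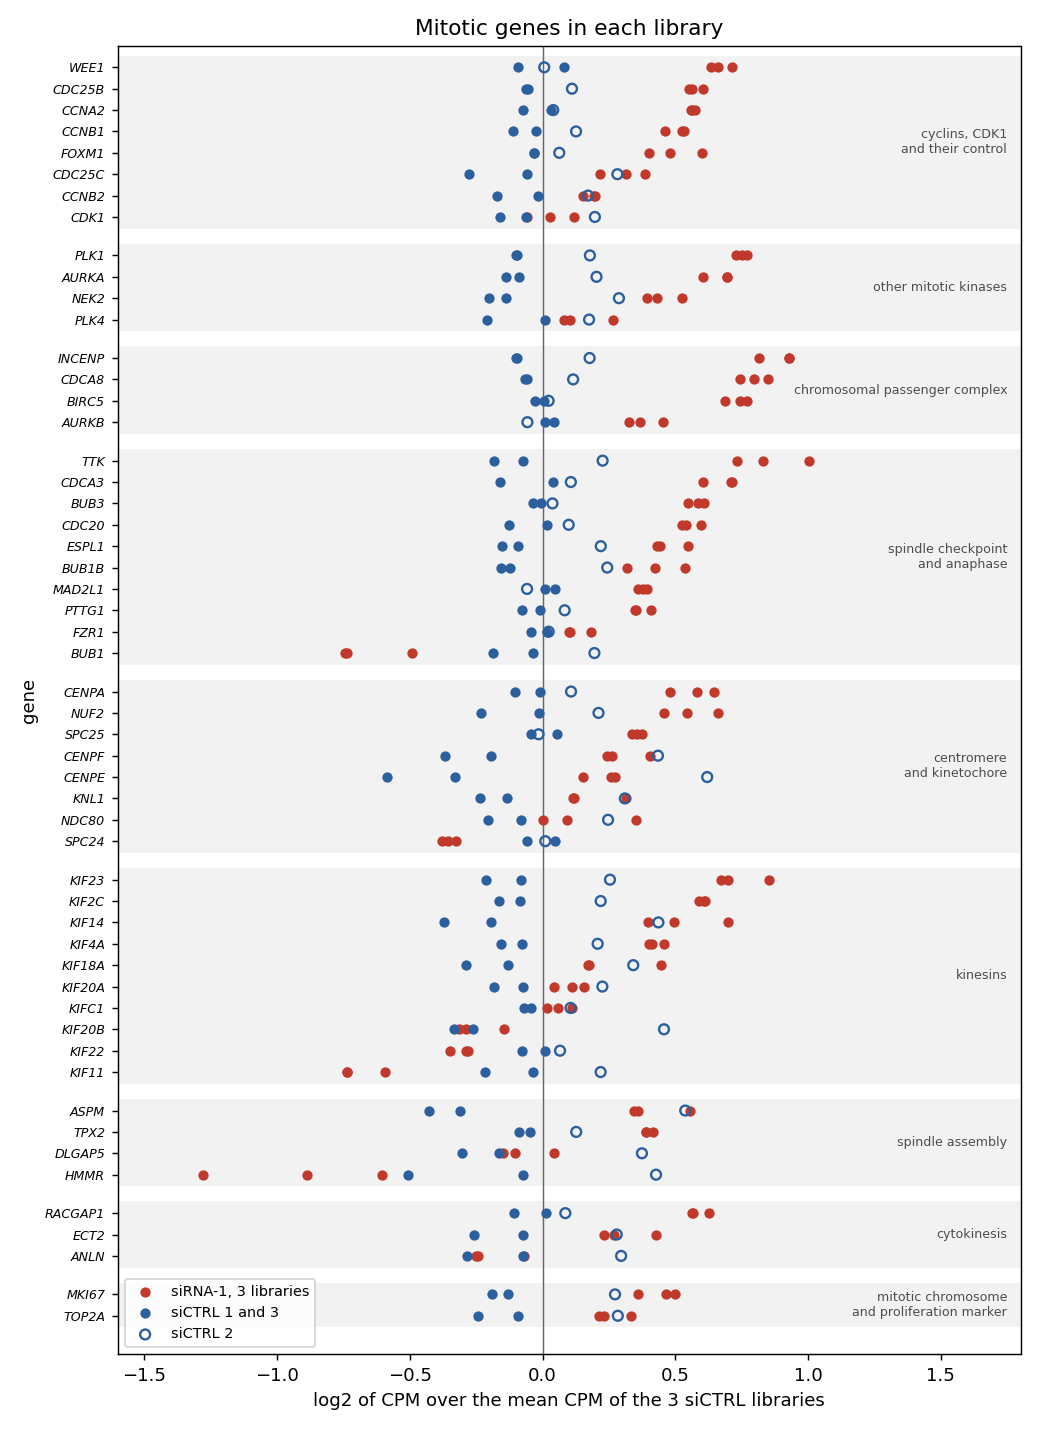
Level of each of the 53 genes in each library, as log2 of its CPM over the mean CPM of the 3 siCTRL libraries, grouped by role. Red points are the 3 siRNA-1 libraries, filled blue points siCTRL 1 and 3, and open blue circles siCTRL 2, which is the highest control at 48 genes. At KIF11, BUB1, SPC24, KIF22 and HMMR all red points lie left of all blue points.

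Most of the promoters found for these genes hold a sequence element of their shared control. Windows of 5 genes that rose and 4 that fell are shown as examples, picked after the matches were seen because both elements lie close to the start. RefSeq promoters (GRCh38.p14, 250 bases before to 50 after the annotated start) were matched by symbol for 44 of the 53 genes. WEE1, FOXM1, AURKA, BIRC5, BUB3, TTK, KNL1, TPX2 and RACGAP1 had no entry. The element of the MuvB complex, the cell cycle genes homology region (CHR), was searched as TTTGAA or TTCGAA, and the NF-Y element as CCAAT, each on both strands. On the minus strand TTTGAA reads TTCAAA and CCAAT reads ATTGG, while TTCGAA reads the same on both. The windows below run 5′ to 3′ on the strand of the gene from 110 bases before to 10 after the start, with CHR and CCAAT matches in capitals. PLK1 lies at chr16:23678779-23678898 (plus strand), CDCA8 at chr1:37692406-37692525 (plus), INCENP at chr11:62123901-62124020 (plus), KIF23 at chr15:69414239-69414358 (plus) and ESPL1 at chr12:53268189-53268308 (plus), and these 5 genes rose. KIF11 lies at chr10:92593020-92593139 (plus), BUB1 at chr2:110678054-110678173 (minus), HMMR at chr5:163460522-163460641 (plus) and KIF22 at chr16:29790641-29790760 (plus), and these 4 fell.
PLK1: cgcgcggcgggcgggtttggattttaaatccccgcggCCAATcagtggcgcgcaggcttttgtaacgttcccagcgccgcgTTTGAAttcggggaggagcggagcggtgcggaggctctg
CDCA8: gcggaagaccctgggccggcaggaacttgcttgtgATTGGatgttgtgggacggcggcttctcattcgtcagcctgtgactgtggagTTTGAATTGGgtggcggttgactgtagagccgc
INCENP: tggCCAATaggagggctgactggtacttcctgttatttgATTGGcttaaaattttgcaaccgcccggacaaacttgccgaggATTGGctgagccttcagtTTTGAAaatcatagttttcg
KIF23: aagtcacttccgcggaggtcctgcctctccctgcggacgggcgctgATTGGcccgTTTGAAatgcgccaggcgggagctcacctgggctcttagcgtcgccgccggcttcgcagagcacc
ESPL1: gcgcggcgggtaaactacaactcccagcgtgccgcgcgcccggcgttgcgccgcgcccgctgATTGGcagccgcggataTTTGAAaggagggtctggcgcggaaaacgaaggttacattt
KIF11: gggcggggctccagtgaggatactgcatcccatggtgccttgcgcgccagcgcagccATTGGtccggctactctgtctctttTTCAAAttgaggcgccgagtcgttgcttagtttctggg
BUB1: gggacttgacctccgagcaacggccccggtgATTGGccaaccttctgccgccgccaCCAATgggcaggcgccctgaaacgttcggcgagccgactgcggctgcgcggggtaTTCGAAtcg
HMMR: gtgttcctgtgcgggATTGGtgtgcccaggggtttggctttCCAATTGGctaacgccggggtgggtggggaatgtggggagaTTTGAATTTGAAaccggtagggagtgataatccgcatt
KIF22: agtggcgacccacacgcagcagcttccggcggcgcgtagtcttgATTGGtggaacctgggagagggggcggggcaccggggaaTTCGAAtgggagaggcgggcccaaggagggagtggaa
In CDCA8 the CHR match and an ATTGG share a base, and in HMMR a CCAAT and an ATTGG overlap.

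Over the whole promoters, 33 of the 44 genes (75%) held a CHR match, 34 (77.3%) a CCAAT match and 27 (61.4%) both. Among the 10135 tested genes with a promoter, 11.1% held a CHR match, 36.5% a CCAAT match and 4.68% both, and the shares among all 27305 RefSeq promoters were 16.6%, 35.7% and 6.58%. Both elements were found in mitotic genes of every call. CHR matches occurred in 17 of the 25 genes that rose, in 4 of the 5 that fell and in 12 of the 14 that did not pass. CCAAT matches occurred in 20 of those that rose, in all 5 that fell and in 9 of those that did not pass. SPC24 was the member that fell without a CHR match. A match is a description of these letters and does not show that a factor binds there.

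**Figure D2:**
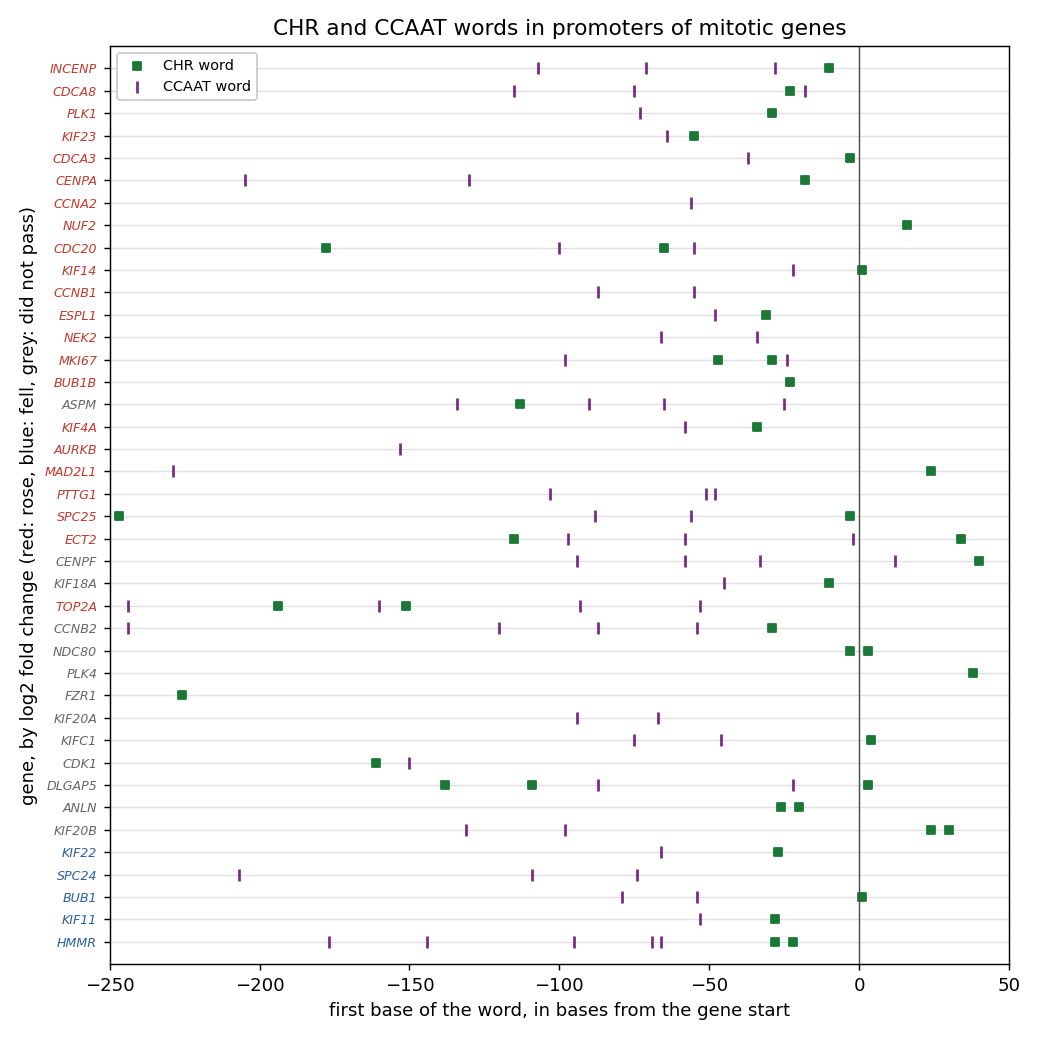
Positions of CHR and CCAAT matches relative to the annotated start in the RefSeq promoters of mitotic genes that hold at least 1 match. Genes are in order of log2 fold change, with names coloured by call (red: rose, blue: fell, grey: did not pass). Matches occur in promoters of genes that rose, fell and did not pass, with 4 of the 44 promoters holding neither element.

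Among the genes that start mitosis, 6 of 8 rose and 0 fell, and without siCTRL 2 all 8 rose. Of all genes tested 31.5% rose and 31.0% fell, and 34.5% and 34.3% without siCTRL 2. WEE1, the kinase that holds CDK1 inactive, had 110, 108 and 114 CPM in siRNA-1 libraries, against 73.5, 69.8 and 65.2 CPM in siCTRL libraries. It rose 1.59-fold (log2 fold change 0.67, SE 0.062, adjusted p = 2.28e-06). CDC25B, a phosphatase that removes the inhibitory phosphate placed by WEE1, rose 1.49-fold, with 236, 242 and 234 CPM against 153, 172 and 153 CPM. CDC25B and WEE1, an activator and an inhibitor of CDK1, were thus both higher in every siRNA-1 library than in any control. CCNA2, cyclin A2, averaged 235 ± 1.18 CPM in siRNA-1 and 159 ± 6.86 CPM in siCTRL (SD, n = 3 each) and rose 1.48-fold. CCNB1, cyclin B1, rose 1.42-fold to 377, 360.1 and 379 CPM in siRNA-1, against 243, 286 and 257 CPM in siCTRL. FOXM1, a transcription factor of G2 and mitotic genes, rose 1.41-fold, and 15.9% of its exonic bases are shared with ITFG2, the highest share among the 53 genes. CDK1 itself had 153, 145 and 163 CPM in siRNA-1, against 135, 172 and 144 CPM in siCTRL, and did not pass (log2 fold change 0.03, SE 0.085, adjusted p = 0.757). Its groups overlapped through siCTRL 2, and without that library its log2 fold change was 0.13 (adjusted p = 0.0193). CCNB2, cyclin B2, had a log2 fold change of 0.18 (adjusted p = 0.0640) with all libraries and 0.26 without siCTRL 2. CDC25C, another phosphatase of CDK1, rose 1.24-fold (adjusted p = 0.0438), a call that was lost on leaving out any library other than siCTRL 2.

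Of the other mitotic kinases, 3 of 4 rose, against 31.5% of all genes tested. PLK1, which prepares centrosomes and kinetochores for division, had 124, 128 and 126 CPM in siRNA-1, against 69.9, 84.7 and 70.0 CPM in siCTRL. It rose 1.68-fold (log2 fold change 0.75, SE 0.075, adjusted p = 4.14e-06), and 1.78-fold without siCTRL 2, with 12.5% of its exonic bases shared with AC008870.3 and ERN2. AURKA, the Aurora kinase of the spindle poles, rose 1.59-fold, with 229, 215 and 229 CPM in siRNA-1 and 129, 163 and 133 CPM in siCTRL. NEK2, a kinase that separates centrosomes, rose 1.37-fold (adjusted p = 0.00307), and 1.52-fold without siCTRL 2. These 3 kinases were above every control in every siRNA-1 library. PLK4, which starts centriole duplication, had 63.0 ± 4.48 CPM in siRNA-1 and 56.7 ± 7.50 CPM in siCTRL and did not pass (adjusted p = 0.163), while without siCTRL 2 its log2 fold change was 0.24 (adjusted p = 0.000925).

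All 4 subunits of the chromosomal passenger complex rose, against 31.5% of all genes tested. Their median log2 fold change was 0.77, above that of any other role, and leaving out siCTRL 2 changed none of the calls. INCENP, the scaffold that holds the complex together, had 127, 138 and 137 CPM in siRNA-1, against 67.4, 81.7 and 67.7 CPM in siCTRL. It rose 1.86-fold (log2 fold change 0.89, SE 0.078, adjusted p = 1.40e-06), the largest rise among the 53 genes. CDCA8, borealin, rose 1.74-fold, with 155, 167 and 161 CPM against 89.0, 100.3 and 88.5 CPM. BIRC5, survivin, which with borealin places the complex on the centromere, rose 1.66-fold, with 195, 206 and 203 CPM against 119, 123 and 122 CPM. AURKB, the kinase of the complex, rose least, 1.3-fold, with 84.7, 87.2 and 92.5 CPM against 69.7, 64.9 and 68.0 CPM. Groups did not overlap at any of the 4. Per kilobase of exonic length, the subunits stood at 65.2 ± 2.36 CPM (CDCA8), 52.8 ± 1.51 (BIRC5), 39.3 ± 1.78 (AURKB) and 29.96 ± 1.33 (INCENP) in siRNA-1. In siCTRL they stood at 37.5 ± 2.69 CPM per kilobase (CDCA8), 31.7 ± 0.590 (BIRC5), 30.1 ± 1.08 (AURKB) and 16.2 ± 1.83 (INCENP). On that scale the intervals of mean ± SD of BIRC5 and AURKB were apart in siRNA-1 and overlapped in siCTRL. Exonic length joins all annotated exons of a gene and may differ from the length of the transcripts present. Comparisons between genes depend on it.

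In the spindle checkpoint and the steps to anaphase, 8 of 10 genes rose and BUB1 fell, against 31.5% and 31.0% of all genes tested. TTK, the MPS1 kinase at the head of the checkpoint, had 92.3, 86.4 and 104 CPM in siRNA-1, against 45.8, 60.8 and 49.4 CPM in siCTRL, and rose 1.82-fold (log2 fold change 0.86, SE 0.10, adjusted p = 1.56e-05), and 1.96-fold without siCTRL 2. BUB1, the kinase that marks centromeric histone H2A and recruits checkpoint proteins to kinetochores, had 104, 103 and 123 CPM in siRNA-1, against 152, 198 and 169 CPM in siCTRL. It fell 1.57-fold (log2 fold change -0.65, SE 0.096, adjusted p = 9.28e-05), and by 0.56 on the log2 scale without siCTRL 2. Its paralogue BUB1B, the BUBR1 subunit of the mitotic checkpoint complex, moved the other way, with 83.8, 77.9 and 90.6 CPM in siRNA-1 and 56.05, 74.0 and 57.5 CPM in siCTRL (1.35-fold higher, adjusted p = 0.00264). The annotation has BUB1B share 10.2% of its exonic bases with the read-through gene BUB1B-PAK6. BUB3, the partner of both, rose 1.5-fold to 413 ± 8.51 CPM in siRNA-1, against 276 ± 6.89 CPM in siCTRL. MAD2L1, the checkpoint protein MAD2, rose 1.3-fold, and CDC20, the activator of the anaphase-promoting complex that MAD2 holds, rose 1.47-fold. PTTG1, securin, and ESPL1, the separase that securin inhibits, rose 1.29-fold and 1.39-fold. CDCA3, an adaptor in the breakdown of WEE1, rose 1.60-fold. FZR1, the activator that keeps the anaphase-promoting complex on after mitosis, had 70.4 ± 2.30 CPM in siRNA-1 and 64.4 ± 1.59 CPM in siCTRL and did not pass (adjusted p = 0.0752, and 0.0519 without siCTRL 2). FZR1 was the only gene of the 53 outside the test's threshold in both fits whose groups did not overlap.

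At the centromere and kinetochore genes the counts depended on siCTRL 2. With all libraries 3 of 8 rose and 1 fell, the rises near the 31.5% of all genes tested (31.0% fell). Without siCTRL 2, 7 rose and the same gene fell, against 34.5% and 34.3% of all genes tested. CENPA, the histone H3 variant that marks centromeres, rose 1.49-fold, with 49.6, 47.5 and 44.2 CPM in siRNA-1 against 31.5, 34.2 and 29.5 CPM in siCTRL. The 4 subunits of the NDC80 complex, which binds the microtubule, did not move together. NUF2 rose 1.47-fold, with 79.2, 74.6 and 85.9 CPM against 46.3, 62.9 and 53.8 CPM, and SPC25 rose 1.28-fold, with 40.03, 40.5 and 41.1 CPM against 30.8, 31.4 and 32.9 CPM. SPC24, the partner of SPC25 at the inner end of the complex, fell 1.28-fold, with 21.8, 22.1 and 22.6 CPM against 27.2, 28.5 and 29.2 CPM (log2 fold change -0.35, SE 0.078, adjusted p = 0.00190). NDC80 had 74.5, 69.9 and 89.2 CPM against 60.6, 82.9 and 66.0 CPM and did not pass (adjusted p = 0.245, and 7.59e-05 without siCTRL 2, where its log2 fold change was 0.29). Per kilobase of all annotated exons, SPC24 was the lowest subunit in both groups. It had 7.81 ± 0.134 CPM in siRNA-1 and 9.97 ± 0.366 CPM in siCTRL on that scale. NDC80, NUF2 and SPC25 stood between 21.6 and 23.8 CPM per kilobase in siRNA-1 and between 16.2 and 19.4 CPM per kilobase in siCTRL. The long kinetochore genes rested most on siCTRL 2. CENPE, the kinesin that carries chromosomes to the spindle equator, had 75.0, 80.6 and 81.6 CPM in siRNA-1, against 45.0, 104 and 53.7 CPM in siCTRL. All siRNA-1 libraries thus lay between siCTRL 2 and the other controls, and the log2 fold change was 0.23 (adjusted p = 0.385) with all libraries and 0.67 (adjusted p = 9.32e-16) without siCTRL 2. CENPF, a large coat protein of the kinetochore, had 386, 381 and 426 CPM against 250, 435 and 281 CPM, with log2 fold changes of 0.31 (adjusted p = 0.106) and 0.57 (adjusted p = 7.92e-19). KNL1, the scaffold on which BUB1 and BUB3 dock, had log2 fold changes of 0.19 (adjusted p = 0.189) and 0.36 (adjusted p = 1.67e-06) in the same pair of fits.

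Of the kinesins 4 of 10 rose and 2 fell, against 31.5% and 31.0% of all genes tested, and the counts without siCTRL 2 were 7 and the same 2. Their median log2 fold change was 0.19 with all libraries and 0.34 without siCTRL 2. KIF23, the motor of centralspindlin, which bundles microtubules of the central spindle, had 173, 170.2 and 193 CPM in siRNA-1, against 92.2, 128 and 101 CPM in siCTRL. It rose 1.68-fold (log2 fold change 0.74, SE 0.10, adjusted p = 4.93e-05), and 1.84-fold without siCTRL 2. KIF2C, the microtubule depolymeriser MCAK that corrects wrong attachments, rose 1.52-fold, with 244, 243 and 240.1 CPM against 143, 186 and 151 CPM. KIF4A, a chromokinesin, rose 1.34-fold and KIF14, a kinesin of cytokinesis, 1.45-fold, or 1.44-fold and 1.746-fold without siCTRL 2, and the call of KIF14 was lost without siRNA-1 replicate 3 or siCTRL 1. KIF11, the motor Eg5 that pushes spindle poles apart, had 80.0, 79.8 and 88.2 CPM in siRNA-1, against 115, 155 and 130 CPM in siCTRL. It fell 1.61-fold (log2 fold change -0.69, SE 0.096, adjusted p = 6.12e-05), and by 0.58 on the log2 scale without siCTRL 2, since that library was the highest control here too. KIF22, the chromokinesin Kid, fell 1.24-fold, with 50.7, 51.0 and 48.7 CPM against 62.3, 64.8 and 58.7 CPM (adjusted p = 0.00129), and 13% of its exonic bases are shared with AC009133.4. KIF18A and KIF20A, motors of chromosome alignment and of the central spindle, did not pass with all libraries (log2 fold changes 0.27 and 0.11) and were higher without siCTRL 2 (0.46 and 0.22). KIFC1, a motor that moves to the minus end and gathers spindle poles, shares 12.7% of its exonic bases with RPL12P1 and averaged 150 ± 4.84 CPM in siRNA-1 and 144 ± 9.51 CPM in siCTRL (log2 fold change 0.06, adjusted p = 0.386, and 0.0489 without siCTRL 2). KIF20B, a kinesin of late cytokinesis, had 65.9, 67.3 and 74.2 CPM against 65.1, 113 and 68.4 CPM, so that its value of -0.24 (adjusted p = 0.215) turned to 0.04 (adjusted p = 0.592) without siCTRL 2.

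Among the spindle assembly factors 1 of 4 rose and 1 fell, against 31.5% and 31.0% of all genes tested, and without siCTRL 2 the other 3 rose and the same gene fell. TPX2, which activates AURKA on microtubules, rose 1.32-fold, with 479.5, 480.3 and 488 CPM in siRNA-1 and 344, 399.9 and 354 CPM in siCTRL. HMMR, the hyaluronan-mediated motility receptor that binds spindle poles with TPX2, was the least abundant of the 53 genes, with 47, 65 and 77 counts in siRNA-1 against 82, 138 and 102 counts in siCTRL. It fell 1.85-fold, the largest fall in the set and the least precise (log2 fold change -0.89, SE 0.24, adjusted p = 0.00689), and by 0.63 on the log2 scale without siCTRL 2. ASPM, a spindle pole protein, had 168, 167 and 193 CPM against 97.4, 190 and 106 CPM. Its log2 fold change was 0.43 (adjusted p = 0.0715) with all libraries and 0.78 (adjusted p = 9.28e-23) without siCTRL 2, whose value lay among those of siRNA-1. DLGAP5, the microtubule bundler HURP, had 108, 112 and 124 CPM against 97.5, 156 and 107 CPM, with log2 fold changes of -0.07 (adjusted p = 0.695) and 0.15 (adjusted p = 0.0108).

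In cytokinesis, RACGAP1, the partner of KIF23 in centralspindlin, rose 1.5-fold, with 224, 224 and 233 CPM in siRNA-1 against 140.3, 160.4 and 153 CPM in siCTRL. ECT2, the exchange factor that centralspindlin recruits to activate RhoA, rose 1.24-fold (adjusted p = 0.0265), and the call was lost without siRNA-1 replicate 1 or 3, or siCTRL 1 or 3. ANLN, anillin, the scaffold of the contractile ring, had 314, 315 and 355 CPM against 307, 458 and 355 CPM and passed in neither fit (log2 fold changes -0.18 and -0.02). MKI67, the Ki-67 protein that coats mitotic chromosomes and marks proliferating cells, had 629, 676 and 692 CPM against 430, 592 and 448 CPM and rose 1.36-fold (adjusted p = 0.00227), and 1.5-fold without siCTRL 2. TOP2A, the topoisomerase that untangles chromosomes before anaphase, was the most abundant of the 53 genes by CPM, with 698, 706 and 758 CPM in siRNA-1 and 508, 733 and 565 CPM in siCTRL. It passed narrowly (1.20-fold higher, adjusted p = 0.0490, and 1.33-fold without siCTRL 2), its groups overlapped through siCTRL 2, and the call was lost on leaving out any other library.

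**Figure D3:**
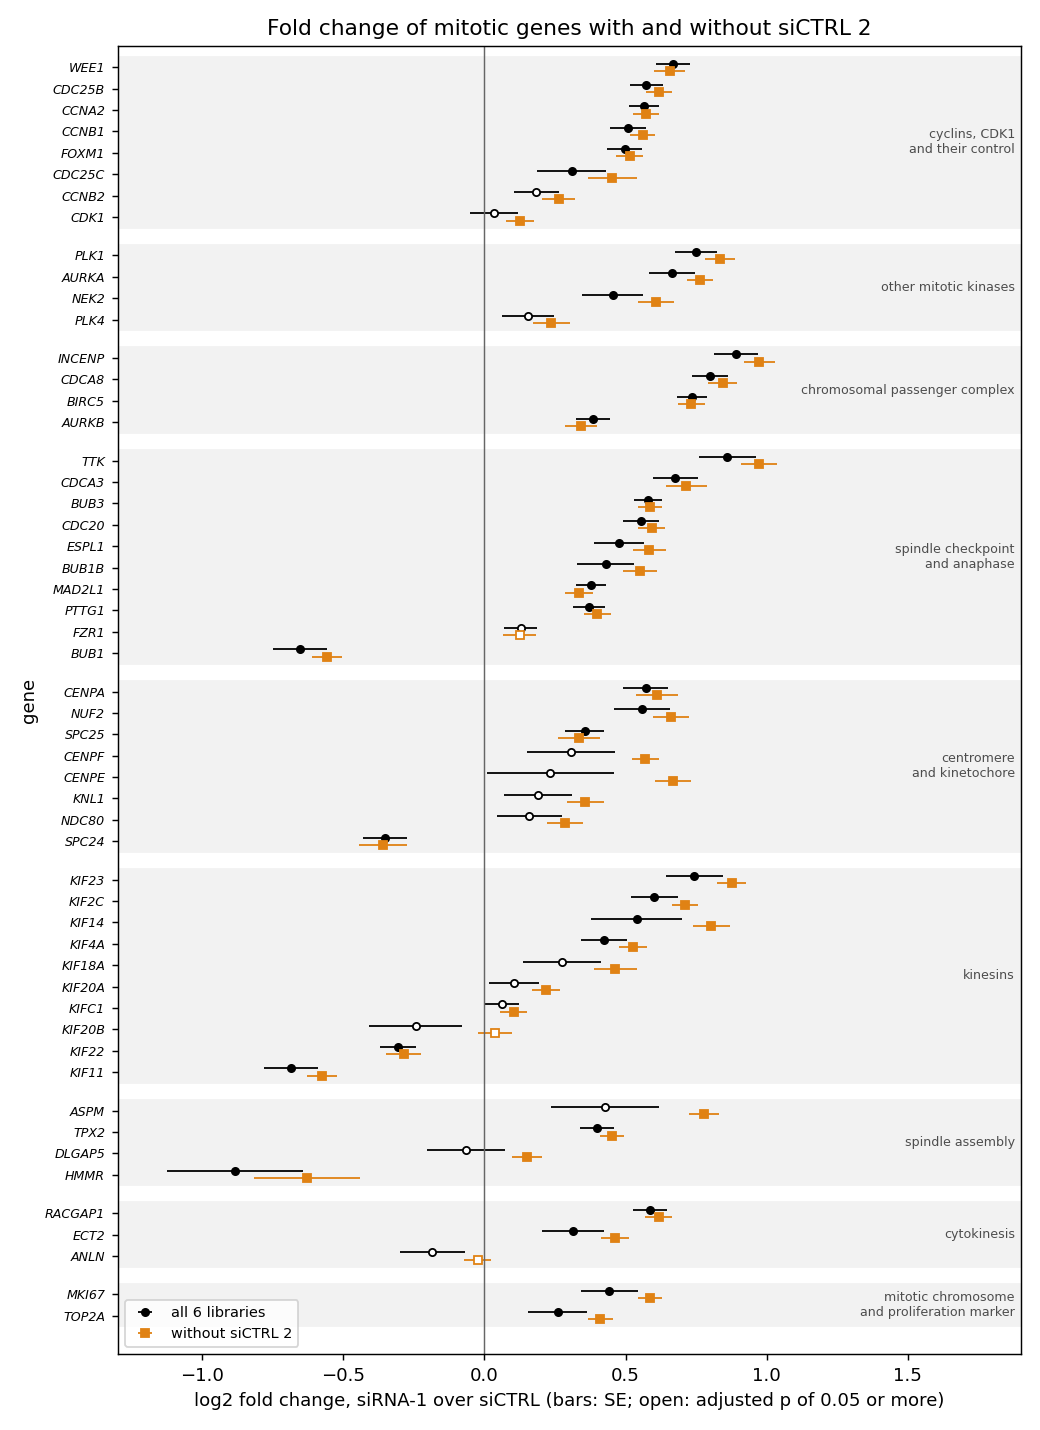
Log2 fold change (siRNA-1 over siCTRL) of each gene with its SE, from all 6 libraries (black) and without siCTRL 2 (orange), with open symbols where the adjusted p was 0.05 or more. Without siCTRL 2 most values move right, CENPE from 0.23 to 0.67, while the 5 genes that fell stay left of 0.

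Ratios of counts within a library are given for 4 pairs in which a gene that fell was set against a gene of the same role that rose. The pairs were chosen after the values were seen and their directions follow from that choice, so the ratios are a description of each library, without a test. KIF11 per KIF23 was 0.461, 0.469 and 0.457 in siRNA-1 libraries, against 1.24, 1.22 and 1.29 in siCTRL libraries, a 2.70-fold lower ratio. BUB1 per BUB1B was 1.24, 1.33 and 1.36 in siRNA-1, against 2.71, 2.67 and 2.94 in siCTRL, 2.12-fold lower. In these ratios siCTRL 2 lay at 1.22 and 2.67, close to the other controls, although it had the highest CPM of the controls for each of the 4 genes. SPC24 per NUF2 was 0.275, 0.297 and 0.263 in siRNA-1, against 0.586, 0.453 and 0.543 in siCTRL, and KIF22 per KIF2C was 0.208, 0.210 and 0.203, against 0.437, 0.349 and 0.390. Both were 1.89-fold lower, and here siCTRL 2 was the lowest control. A ratio shows unequal change and not which of the pair changed.

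**Figure D4:**
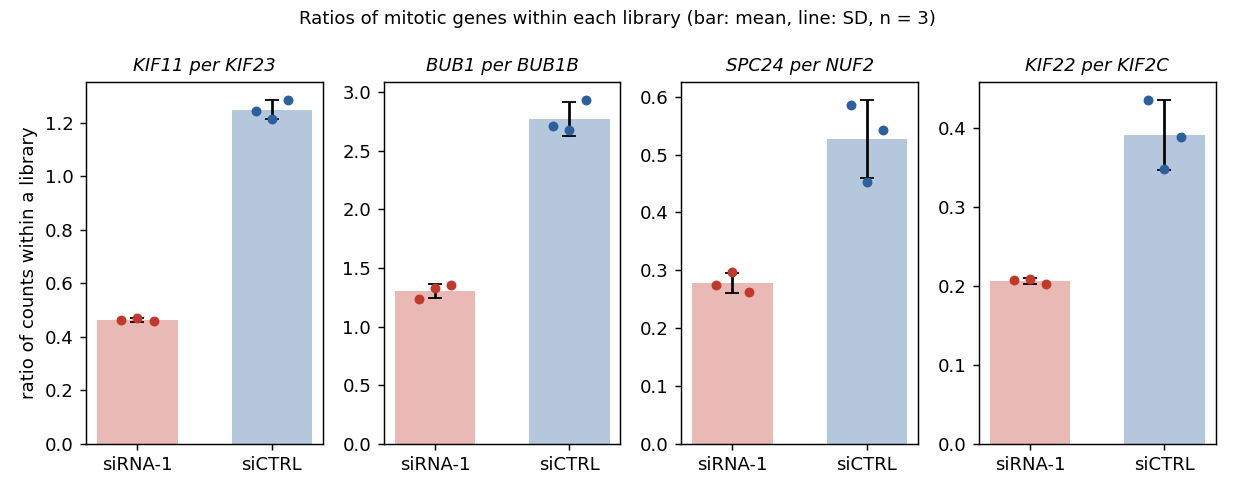
Ratio of the counts of 2 mitotic genes within each library, with siRNA-1 left of siCTRL, points for libraries, bars for means and lines for the SD (n = 3). The KIF11 per KIF23 ratio lies between 0.457 and 0.469 in siRNA-1 and between 1.22 and 1.29 in siCTRL.

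The excess of siCTRL 2 over the other controls grew with the length of the gene, a trend that was not separated from GC content. The log2 difference between siCTRL 2 and the mean of siCTRL 1 and 3 had a median of 0.18 over the 18 mitotic genes with under 3653 exonic bases, 0.31 over the 17 of middle length and 0.44 over the 18 with 5299 bases or more. Over all tested genes in these length classes the medians were -0.09 (n = 3613), -0.02 (n = 2782) and 0.06 (n = 6023). CENPE (1.08), ASPM (0.91), KIF20B (0.75), KIF14 (0.72) and CENPF (0.72) showed the largest differences, whereas the long genes BUB3 and WEE1 differed by 0.06 and 0.01. HMMR and DLGAP5, of middle length with 3936 and 3667 exonic bases, came next at 0.70 and 0.61. Across genes, which are not independent and share these libraries, the difference correlated with log2 exonic length at a Pearson r of 0.493 (Spearman rho 0.429) over the 53 mitotic genes and 0.23 (0.273) over 12418 genes. The fold change of siRNA-1 over siCTRL had a Pearson r with log2 length of -0.049 over the 53 genes. What underlies the higher values of siCTRL 2 was not tested. GC content entered an alternative fit together with length, and its correlation with these differences was not computed. GC content was 34.2% in KIF20B, 35.3% in CENPE, 36.7% in HMMR, 37.1% in ASPM, 38.3% in KIF14, 38.4% in DLGAP5 and 40.8% in CENPF. The long genes FZR1 and ESPL1, with 64% and 57%, differed by 0.03 and 0.34. Against such a trend, MAD2L1 and WEE1, with 39.4% and 40.8%, differed by -0.09 and 0.01. Every siRNA-1 library lay above siCTRL 2 at 30 of the 53 genes and below it at 12. Over all 12440 genes tested these numbers were 5398 and 5458.

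**Figure D5:**
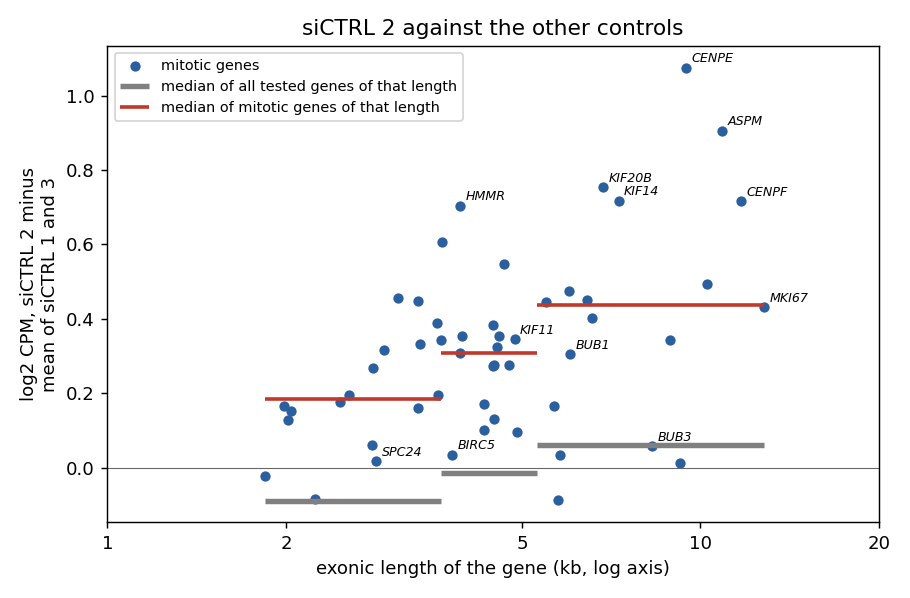
Log2 CPM of siCTRL 2 minus the mean of siCTRL 1 and 3 for each mitotic gene, against its exonic length in kilobases on a log axis, with medians of the mitotic genes (red) and of all tested genes (grey) in 3 length classes. The red medians are 0.18, 0.31 and 0.44 from short to long, and the grey ones -0.09, -0.02 and 0.06.

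The 5 genes that fell lie on 5 chromosomes: KIF11 on chromosome 10 (92593286 to 92655395, plus strand), BUB1 on chromosome 2 (110637698 to 110678114, minus), HMMR on chromosome 5 (163460203 to 163491945, plus), SPC24 on chromosome 19 (11131520 to 11155808, minus) and KIF22 on chromosome 16 (29790719 to 29805385, plus), as protein-coding genes of GENCODE 29 on GRCh38. Their 3′ UTRs were read for the 7-base word GCTCACT, which an earlier look at these same data had picked from genes that fell at least 2-fold. None of these 5 fell that far, but the libraries are the same, so the counts are a description. Of the 5 genes that fell, 4 held the word (BUB1, HMMR, KIF11 and SPC24), against 1 of the 33 that rose (MAD2L1) and 2 of the 15 that did not pass (FZR1 and KNL1). Among all 12275 tested genes with a 3′ UTR of at least 50 bases, 19.0% held it, with 29.7% of those that fell, 27.3% of those that fell under 2-fold, 11.4% of those that rose and 16.6% of those that did not pass. The median 3′ UTR was 781 bases in the mitotic genes that fell, 805 in those that rose and 654 in those that did not pass. Among all tested genes it was 1409 bases, with 1681 in those that fell, 1292.5 in those that rose and 1292 in those that did not pass. The shares thus come from sets of unequal 3′ UTR length, for which they were not adjusted. The sites of 5 of these genes are shown with 11 bases on either side and the word in capitals, at base 49 after the stop codon in BUB1, 428 in HMMR, 746 in KIF11, 778 in FZR1, and 1541 and 3152 in MAD2L1.
BUB1: aatatgaatctGCTCACTttaaacctgtt
HMMR: attctgataatGCTCACTtggtcctacct
KIF11: ctttctcctcgGCTCACTttctccctttt
FZR1: aacccggacctGCTCACTgccctggctgg
MAD2L1 at 1541: gacgcagctcaGCTCACTacagcctctgc
MAD2L1 at 3152: taatatttaaaGCTCACTtgtaaaacatc
KIF22, whose 3′ UTR has 75 bases, fell without the word.

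The wider mitotic machinery held rises and falls as well. Across 4 lists of other mitotic factors with 93 genes tested, 48 rose, 15 fell and 30 did not pass. Their median log2 fold change was 0.21, and without siCTRL 2 these counts were 59, 15 and 19. The shares over all genes tested, to be read beside each list, were 31.5% higher and 31.0% lower, and 34.5% and 34.3% without siCTRL 2. In a list of the anaphase-promoting complex, its conjugating enzymes and FBXO5, 11 of 17 rose and 3 fell (10 and 3 without siCTRL 2). UBE2S, the enzyme that extends ubiquitin chains for the complex, rose to 242 ± 6.13 CPM in siRNA-1, against 143 ± 11.9 CPM in siCTRL (1.69-fold), and the scaffold subunit ANAPC5 rose 1.65-fold. ANAPC16, a small subunit of the complex, fell 2.29-fold to 42.4 ± 1.03 CPM in siRNA-1, against 97.1 ± 7.02 CPM in siCTRL. In a list of inner kinetochore genes, the Mis12, SKA and RZZ complexes and related factors, 11 of 29 rose and 7 fell. Without siCTRL 2 the counts were 15 and 7, and with all libraries they are near the shares of all genes. MIS12, a subunit of the complex that joins the centromere to KNL1 and NDC80, fell 1.86-fold, CENPN, which reads CENPA nucleosomes, fell 1.81-fold with 22.8% of its exonic bases shared with other genes, and ZWINT, a partner of KNL1, rose 1.42-fold. In condensin and cohesin 13 of 20 rose and 1 fell (17 and 1 without siCTRL 2). CDCA5, sororin, which protects cohesion, rose 1.61-fold, NCAPH of condensin I rose 1.56-fold, and PDS5A, a cohesin regulator, fell 1.66-fold.

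Among other spindle and cytokinesis factors 13 of 27 tested genes rose and 4 fell (17 and 4 without siCTRL 2). BORA, the activator of PLK1 by AURKA, rose 2.17-fold to 18.6 ± 0.511 CPM in siRNA-1, against 8.60 ± 0.579 CPM in siCTRL, with 37% of its exonic bases shared with DIS3. SPAG5, astrin, rose 1.68-fold with 15.9% of its exonic bases shared with AC005726.1 and SPAG5-AS1, and TACC3, a spindle protein that AURKA phosphorylates, rose 1.44-fold. PRC1, NUSAP1 and HAUS7 of this list, and LIN37 of the next, had at most 11 counts in a library and were not tested, and between 35.6% and 62.2% of their exonic bases are shared with other genes. A list of MuvB, MYB, E2F and NF-Y factors holds both activators and repressors. Of these, 8 of 21 tested rose and 5 fell (10 and 8 without siCTRL 2), again near the shares of all genes. TFDP2, a dimer partner of E2F, and RBL2, the p130 pocket protein of the DREAM repressor, rose 1.86-fold and 1.91-fold, and E2F2 fell 1.81-fold. RBL2 shares 18.2% of its exonic bases with AC007342.6 and AKTIP. Of the DNA replication genes of S phase, the programme before G2, 5 of 25 rose and 11 fell with and without siCTRL 2, against 31.5% and 31.0% of all genes tested. Their median log2 fold change was -0.12. POLA1, a subunit of the polymerase that primes replication, fell 2.09-fold to 28.4 ± 0.148 CPM in siRNA-1, against 59.3 ± 3.78 CPM in siCTRL. CHEK1, the kinase of the replication checkpoint, fell 1.85-fold, and MCM3, of the replicative helicase, fell 1.56-fold. Whether this list differed from the 53 mitotic genes was not tested.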

How the data were processed

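The authors deposited raw read counts per Ensembl gene for 6 libraries, made with HTSeq. The submitters' processing notes also name Trimmomatic, STAR, kallisto and the build hg38, without versions. The strand setting and annotation release are not stated there. Without the strand setting, reads from overlapping genes cannot be told apart, and the text gives the share of exonic bases shared with other genes where it was over 10% of a gene with a reported fold change. Of the 53 genes, 31 share none.

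The analysis used edgeR 4.0.16 in R 4.3.3. Its filterByExpr (minimum count 10, minimum total 15) kept 12440 genes and 99.9% of counts, TMM factors scaled the libraries, and siRNA-1 was tested against siCTRL by the two-sided quasi-likelihood F test, group as the only term, on the whole table. The same fit was made without siCTRL 2. Adjusted p-values are Benjamini-Hochberg over all genes tested, and levels are scaled CPM. The fit was tested on simulated data with known changes in a small share of genes, equal in both directions, and no control that stood apart. That simulation does not cover data in which many genes change or a control deviates, as here. Alternatives used DESeq2 1.42.0 and limma 3.58.1, other filters, a block, leaving out each library, and a loess correction per library for GC content and exonic length (span 0.4) added after seeing the data. The text names all 53 genes and, of each other list, the 3 with the smallest adjusted p. The members and lists were chosen with earlier results of these data known. Gene models are from GENCODE 29, and the longest 3′ UTR of a gene was used. Some marker and site sequence results are not reported here.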

Additional observations from a re-analysis of the deposited data

How the results depend on the processing

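Of the 33 rises 29, and of the 5 falls all 5, kept direction and call under every alternative that tested them (HMMR was not tested with a mean of at least 100 counts). The rises that did not were CDC25C, KIF14, ECT2 and TOP2A. Counts of members higher and lower stayed within 1.5 times of 33 and 5 throughout: 33 and 5 with DESeq2 size factors, 35 and 5 with no scaling, 32 and 5 with the DESeq2 Wald test, 34 and 5 with limma-voom, 29 and 5 at a threshold of 0.01, 40 and 5 after the correction for GC content and exonic length, and 29 to 45 higher and 5 to 7 lower on leaving out 1 library. Signs changed at CDK1, DLGAP5, CENPE and KIF20B, none of which passed with all libraries. The log2 fold change of CDK1 was -0.0051 with a mean of at least 100 counts, -0.01 without siRNA-1 replicate 3, -0.0524 without siCTRL replicate 1 and 0.1276 without siCTRL replicate 2. That of DLGAP5 was 0.062 after the correction, 0.151 without siCTRL replicate 2 and -0.2063 without siCTRL replicate 1. CENPE gave -4e-04 without siCTRL replicate 1 and 0.6686 without siCTRL replicate 2, and KIF20B -0.3959 and 0.0371 in these 2 fits. Without siCTRL replicate 1, KIF20B and ANLN passed as lower (adjusted p = 0.0486 and 0.0174). With the replicate number as a block (replicate block), 35 members were higher and 5 lower. Deviations of same-numbered libraries correlated at 0.067, -0.078 and -0.057, so the numbers were not taken as pairs. The low counts of HMMR limited its precision (SE 0.24).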
